A study of Mus musculus with 18 samples.

Results

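The 6 genes described here form the core of the prolactin receptor and STAT5 pathway: the receptor Prlr, its kinase Jak2, the transcription factors Stat5a and Stat5b, and the feedback inhibitors Socs2 and Cish. They were picked by symbol from the 55469 gene rows of the deposited tables, with earlier results of these data known, and all 6 were found. Total RNA of the ventral and lateral prostate lobes of male mice on a C56NL/6N background was sequenced. There were 18 libraries of 1 mouse each, 3 in each of 6 groups: WT, KO and A537T at 10 weeks of age, and the same genotypes at 30 weeks. The KO carried a deletion of Elac2, which encodes the enzyme that trims tRNA 3′ ends, driven by the prostate epithelial Pb-Cre transgene, so cells outside that lineage kept the gene. The A537T mice carried the Ala537Thr substitution of ELAC2 in all cells, and the WT were littermates. Both mutant lines of an age were compared with the same 3 WT libraries, so the comparisons are not independent. The TRAMP lines of the study were not analysed here.

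Prolactin is a pituitary hormone that reaches the prostate through the blood. Binding to its receptor activates JAK2, which is held on the receptor's intracellular tail, and JAK2 then phosphorylates STAT5A and STAT5B. The STAT5 proteins enter the nucleus, bind DNA at palindromic sites and switch on genes that include Cish and Socs2, whose proteins bind the active receptor and damp the signal. In the prostate, prolactin and STAT5 are known for supporting the survival, growth and secretion of the luminal epithelium.

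The Cish promoter is shown because Cish is a well known direct target of STAT5. Its RefSeq start of transcription lies on the forward strand of chromosome 9, and the stretch printed here, chr9:107296583-107296682 of GRCm38.p6, covers 76 bases before and 24 bases after that start. The capitals mark the 2 matches to the STAT5 consensus TTCNNNGAA, which reads the same on both strands.
Cish: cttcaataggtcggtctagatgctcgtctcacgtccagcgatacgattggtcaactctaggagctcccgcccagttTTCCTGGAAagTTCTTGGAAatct
The matches begin at bases 1 and 12 counted from the start of transcription. A window of 300 bases around the RefSeq start held at least 1 match in 8.30% of 32851 promoters and at least 2 in 0.457%. RefSeq windows were matched for 5 of the 6 genes, 9 windows in all, since several genes have alternative starts. Beside the 2 matches at Cish, 1 of the 3 Prlr windows held 1 match, and the windows of Jak2, Stat5a and Stat5b held none. Socs2 had no entry. These matches describe letters in a window and were not tested for binding.

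Of the libraries as a whole, 6569642 to 11225281 reads were counted, with a median of 8586877. Luminal genes such as Pbsn and Msmb were present in all 18 libraries, which makes the labelled tissue recognisable in each. Tissue from outside the lobes was also present and moved with the groups. The 8 seminal vesicle genes, led by Svs2 and Svs5, took 6.55 to 10.3% of normalised counts in KO libraries at 10 weeks, against 0.000808 to 4.64% in WT and 0.0374 to 0.191% in A537T. In the older mice they made up 6.32 to 9.17% in 4 mutant libraries (4AF and 6AF of the KO, 7AF and 9AF of A537T) and under 0.001% in the other 2 mutant libraries (5AF and 8AF) and in the WT. The 14 skeletal muscle genes, led at 10 weeks by Myh4 and Acta1, took 1.51 to 5.25% in WT at 10 weeks against 0.0269 to 0.837% in KO and 0.502 to 1.61% in A537T. WT library 12AF was the highest at 5.25%. In bulk tissue, fewer cells of a type and less RNA per cell cannot be told apart.

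The targeted gene is given first. Elac2 (chromosome 11, 64979038 to 65002069, GRCm38) had normalised counts, that is reads divided by a size factor for the library, of 124, 142 and 166 in WT and 119, 111 and 115 in KO at 10 weeks. At 30 weeks it had 150, 153 and 194 in WT and 98.4, 151 and 122 in KO. In A537T libraries Elac2 stood at 173, 165 and 158 at 10 weeks and at 120, 189 and 114 at 30 weeks. The KO libraries lay below the WT at 10 weeks and overlapped them at 30 weeks, and no difference passed limma's test. A count over the whole gene checks neither the loss of exons nor a point mutation.

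Prlr, the gene of the prolactin receptor (chromosome 15, 10177238 to 10349180, forward strand), was lower in every mutant library than in every WT library at 30 weeks, by nearly the same amount in both lines. In the table of the KO it had 5926, 5900 and 5957 normalised counts in WT libraries 1AF to 3AF and 3872, 3434 and 3536 in KO libraries 4AF to 6AF. The groups did not overlap, and the 3 WT libraries were within 1% of their mean. In the table of A537T the same WT libraries had 5671, 5642 and 5715, and libraries 7AF to 9AF had 3842, 3471 and 3215. Here, too, the lowest WT library stood far above the highest mutant.

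The mean at 30 weeks was 3614 ± 229 in KO against 5928 ± 28.3 in WT (SD, n = 3 mice per group), a difference of -0.72 on the log2 scale (SE 0.094, 95% interval -0.94 to -0.49). The corresponding means for A537T were 3509 ± 315 against 5676 ± 36.7, a difference of -0.70 (SE 0.10, interval -0.94 to -0.46). The unadjusted p of limma was 1.26e-04 in KO and 2.19e-04 in A537T, which placed Prlr at rank 9 of 14729 genes and at rank 17 of 14789. After Benjamini-Hochberg adjustment over all genes tested, neither passed a threshold of 0.05: the adjusted p of limma was 0.190 in KO and 0.153 in A537T. In the same fits, 0 genes passed in either comparison (0% of those tested), while 1616 and 2016 genes had an unadjusted p under 0.05 (11% and 13.6%). DESeq2, on reads recovered from the table, did call Prlr, with adjusted p of 1.63e-08 in KO and 6.19e-07 in A537T. DESeq2 called 1.93 and 3.19% of genes in these comparisons, edgeR's quasi-likelihood test called 0 genes in all 4 comparisons, and it gave Prlr adjusted p of 0.271 and 0.172.

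The 2 mutant libraries with hardly any seminal vesicle RNA, 5AF and 8AF, stood at 57.9 and 61.2% of the WT mean, and the 4 libraries rich in it stood between 56.6 and 67.7%. With the 4 rich libraries left out, the difference was -0.79 in KO and -0.71 in A537T, each then resting on 1 mutant library. In these tables the 7 luminal genes took 0.295 to 0.512% of counts in WT, 0.200 to 0.253% in KO and 0.124 to 0.367% in A537T, so that the KO lay below the WT. The part of either tissue in the lower Prlr was not tested further. Over all alternatives the KO difference lay between -0.79 and -0.63 and the A537T difference between -0.76 and -0.56.

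**Figure D1:**
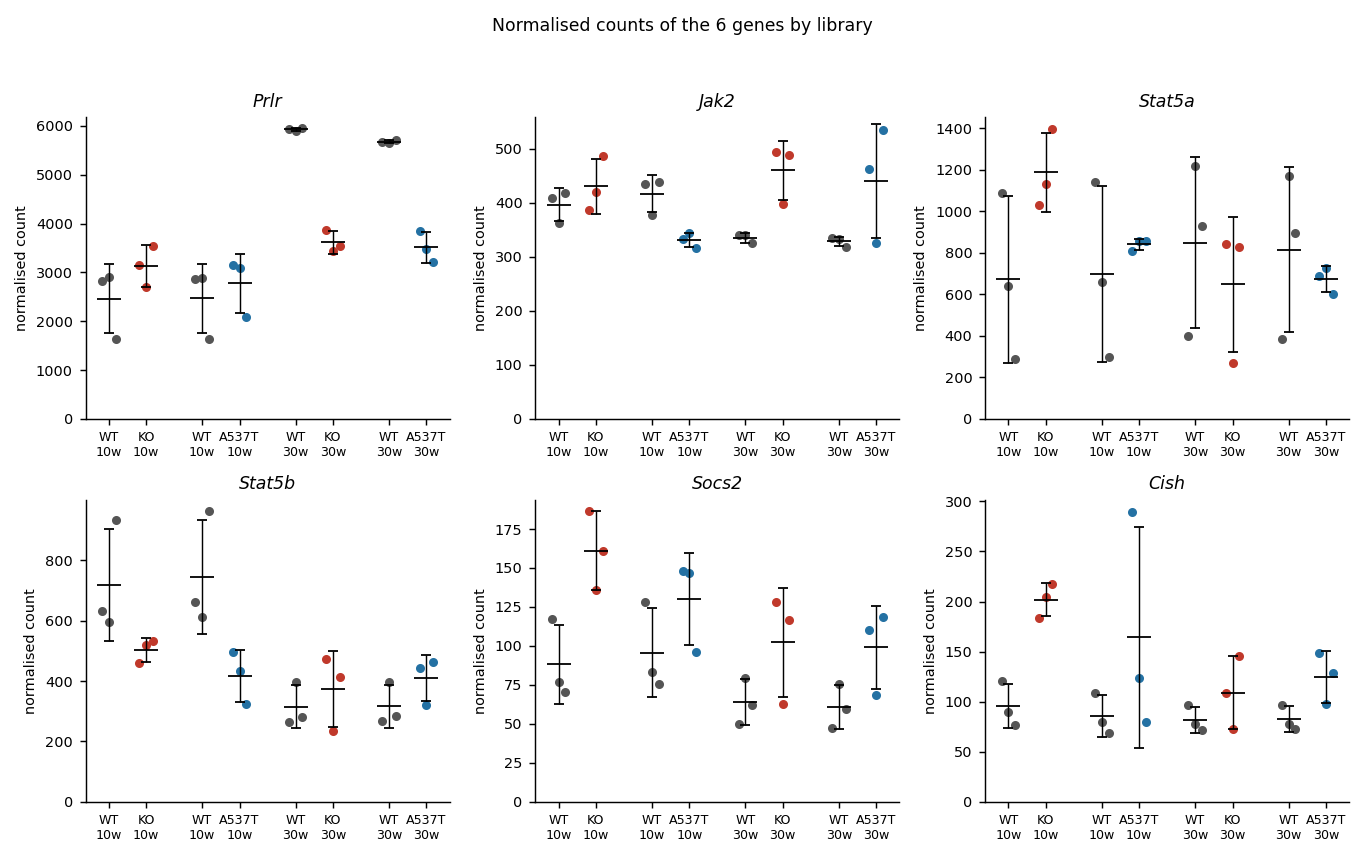
Normalised counts of the 6 genes, 1 point per library, with the group mean and SD as bars; the horizontal axis sets each mutant group beside the WT of the same table, at 10 (10w) and 30 weeks (30w). At 30 weeks all mutant points for Prlr lie between 3215 and 3872, below all WT points (5642 to 5957), while WT points for Stat5a run from 385 to 1218.

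At 10 weeks Prlr did not separate the groups. It had 2829, 2913 and 1643 normalised counts in WT libraries 10AF to 12AF and 3158, 2697 and 3538 in KO libraries 13AF to 15AF. The A537T libraries 16AF to 18AF had 3154, 3099 and 2083, against 2863, 2893 and 1639 in WT in that table. WT library 12AF, the one richest in skeletal muscle genes, was the lowest in both tables. The differences from WT were 0.38 (SE 0.25) in KO and 0.19 (SE 0.28) in A537T on the log2 scale, with limma adjusted p of 0.405 and 0.882. With a skeletal muscle or a seminal vesicle score in the model the KO value was -0.05 or -0.04, and without 12AF the A537T value was -0.08. Neither score overlapped between KO and WT at 10 weeks, so these KO fits cannot tell genotype and tissue apart.

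Levels at the 2 ages come from tables that were normalised separately and are set side by side without a test. Scaled to library total as RPM (reads divided by all reads of the library and multiplied by 1e+06), in the tables of the KO, Prlr had a mean of 658 in WT at 30 weeks (631 to 676 over libraries). Lower in order were KO at 10 weeks at 409 (331 to 471), KO at 30 weeks at 399 (373 to 417) and WT at 10 weeks at 284 (159 to 353). In the tables of A537T, WT at 30 weeks stood at 632, A537T at 30 weeks at 398 (345 to 438), A537T at 10 weeks at 325 (265 to 358) and WT at 10 weeks at 272 (152 to 337). WT at 30 weeks lay apart from the next group in both orders, and KO at 30 weeks lay apart from WT at 10 weeks. All other neighbours overlapped.

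The difference between ages, from fold changes formed within each table, was set against a two-sided permutation of genotype within each age over 400 arrangements. The permutation assumes no effect of genotype at either age, not equal effects at both. A small p from it therefore cannot by itself show that the effects differ between ages. For Prlr the fold change at 30 weeks was lower than that at 10 weeks by 1.10 on the log2 scale in KO and by 0.89 in A537T, given as differences of -1.10 (permutation p = 0.015) and -0.89 (permutation p = 0.025). Adjusted over the 12 values of the family, 6 genes in 2 lines, these p-values were 0.060 and 0.075. Jak2 and Stat5b in A537T had differences of 0.72 and 1.20 in the opposite direction, each with a permutation p of 0.015 and an adjusted p of 0.060. The remaining 8 values had adjusted p from 0.264 to 0.855, so that 0 of 12 passed, and without KO library 5AF 4 of 12 passed. The KO libraries then left at 30 weeks, 4AF and 6AF, were those rich in seminal vesicle RNA. The A537T values use no KO library, so only their adjustment could change.

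**Figure D2:**
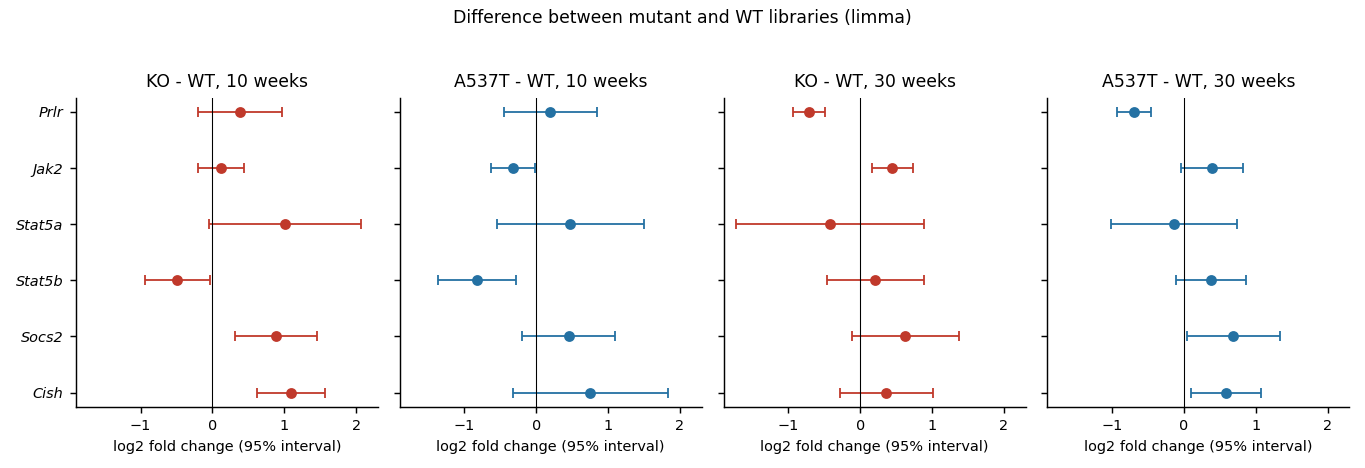
Difference between mutant and WT means on log2(normalised count + 1) for the 6 genes in the 4 comparisons, with 95% intervals from limma on the horizontal axis. Prlr is at -0.72 and -0.70 at 30 weeks with the narrowest intervals there, against 0.38 and 0.19 at 10 weeks.

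Jak2, the tyrosine kinase bound to the receptor (chromosome 19, 29251828 to 29313080), was higher at 30 weeks in KO and in those A537T libraries that held seminal vesicle RNA. Its normalised counts at 30 weeks were 341, 340 and 325 in WT and 494, 397 and 489 in KO. All KO libraries were above all WT libraries, and 5AF, the one with hardly any seminal vesicle RNA, was the lowest of them. In the other table, WT had 334, 333 and 319 and A537T had 462, 325 and 533. Library 8AF lay among the WT and the other 2 above them. The differences were 0.45 (SE 0.12, limma adjusted p = 0.392) in KO and 0.39 (SE 0.18, limma adjusted p = 0.398) in A537T. Without the libraries rich in seminal vesicle RNA they were 0.24 and -0.01, and without 5AF and 8AF they were 0.55 and 0.60, with limma adjusted p of 0.029 in both. The fits without 5AF and 8AF called 944 of 14732 and 1224 of 14801 genes. They set mutant libraries rich in seminal vesicle RNA against WT libraries with hardly any, so genotype and tissue cannot be told apart in them.

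At 10 weeks Jak2 had 409, 362 and 418 normalised counts in WT against 386, 420 and 486 in KO, and the groups overlapped. In the A537T table it had 434, 377 and 438 in WT against 333, 344 and 317 in A537T. Every A537T library was below every WT library there, with a difference of -0.33 (SE 0.13, unadjusted p 0.038 and adjusted p 0.746 with limma). The KO difference was 0.12 (SE 0.14, limma adjusted p = 0.645).

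Stat5a and Stat5b encode the near-identical transcription factors of the pathway and lie next to each other on chromosome 11, Stat5b from 100780731 to 100850724 on the reverse strand and Stat5a from 100859351 to 100885169 on the forward strand, 8626 bases apart. Their transcripts share 836 sequences of 31 bases, 11.5% of those of Stat5a and 15.1% of those of Stat5b, so reads could be divided between them and the split is uncertain. At 10 weeks Stat5a had 1089, 640 and 288 normalised counts in WT and 1031, 1134 and 1396 in KO, and 1139, 657 and 297 in WT against 809, 857 and 854 in A537T. Library 12AF was the lowest and 10AF reached the mutant libraries, so that the groups overlapped in both tables. The difference was 1.01 (SE 0.45, limma adjusted p = 0.271) in KO and 0.47 (SE 0.43, limma adjusted p = 0.812) in A537T.

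Stat5b showed the opposite order at 10 weeks. It had 631, 595 and 933 normalised counts in WT against 459, 521 and 532 in KO, and 661, 611 and 963 in WT against 495, 435 and 325 in A537T. Every mutant library was below every WT library in both tables, and 12AF was the highest. Scaled to library total as RPM, KO and WT overlapped, with 70.8 in KO library 15AF against 69.8 in WT library 11AF. The A537T libraries stayed below WT on that scale. The differences were -0.49 (SE 0.19, unadjusted p 0.039, adjusted p 0.239 with limma) in KO and -0.82 (SE 0.23, unadjusted p 0.0087, adjusted p 0.746 with limma) in A537T. Groups that did not overlap, with the mutant below, made up 14.3% of all genes tested in KO and 6.34% in A537T at this age.

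The ratio of Stat5a to Stat5b counts was 0.308 in 12AF, the only library in which Stat5b exceeded Stat5a, and lay between 1.07 and 3.30 in the other 17. Skeletal muscle genes were at 5.25% of counts in 12AF. With a skeletal muscle score as covariate the Stat5b difference at 10 weeks was -0.34 in KO and -0.35 in A537T, and the Stat5a difference was 0.52 and -0.34. Without 12AF, Stat5b was at -0.28 in KO and -0.62 in A537T and Stat5a at 0.50 and -0.04. The Stat5b difference in KO was also nearer to 0 with a seminal vesicle score as covariate (-0.17) and with libraries scaled to the same total (-0.27). The KO fits with a tissue score cannot tell genotype and tissue apart, since neither score overlapped between KO and WT.

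At 30 weeks neither gene separated the groups. Stat5a had 401, 1218 and 929 normalised counts in WT against 844, 271 and 829 in KO, and 385, 1168 and 894 in WT against 687, 726 and 604 in A537T. The A537T libraries lay within the range of the WT. Stat5b had 265, 396 and 281 in WT against 475, 234 and 414 in KO, and 267, 398 and 284 in WT against 444, 321 and 464 in A537T. The lowest library of each mutant group for Stat5b, 5AF and 8AF, was again the one with hardly any seminal vesicle RNA. The differences were -0.42 (SE 0.55) and -0.14 (SE 0.37) for Stat5a and 0.21 (SE 0.29) and 0.38 (SE 0.21) for Stat5b, with limma adjusted p from 0.447 to 0.886.

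**Figure D3:**
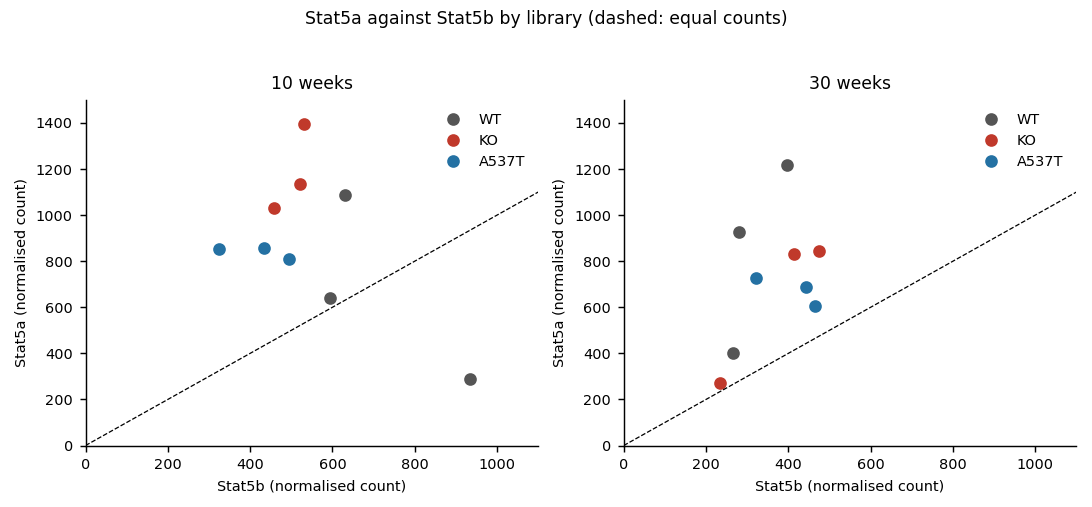
Normalised counts of Stat5a (vertical axis) against Stat5b (horizontal axis), 1 point per library, at 10 and 30 weeks; WT points come from the tables of the KO, A537T points from their own tables, and the dashed line marks equal counts. WT library 12AF (288 and 933) is the only point below the line.

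Cish and Socs2, the feedback inhibitors made in response to STAT5, were higher in every KO library than in every WT library at 10 weeks. Cish (chromosome 9, 107296026 to 107302784) had 120, 90.0 and 76.5 normalised counts in WT and 184, 205 and 217 in KO. The KO group was tight and the highest WT library, 10AF, stayed well below it. The mean was 202 ± 16.9 in KO against 95.6 ± 22.4 in WT (SD, n = 3), a 2.13-fold difference, or 1.09 on the log2 scale (SE 0.20, interval 0.62 to 1.57). Its limma unadjusted p was 0.0010 (rank 35 of 15089 genes), and its adjusted p was 0.183 with limma, 0.206 with edgeR and 0.0029 with DESeq2, which called 4.74% of genes.

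Socs2 (chromosome 10, 95385362 to 95417180) had 117, 76.6 and 70.4 normalised counts in WT and 186, 136 and 161 in KO at 10 weeks. The groups were apart, with 10AF again the highest of the WT. The difference was 0.89 (SE 0.24, interval 0.32 to 1.46), a fold of 1.85, with an adjusted p of 0.183 with limma and 0.060 with DESeq2.

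All 3 KO libraries at 10 weeks held more seminal vesicle RNA than any WT library, and within WT the library with the highest share, 10AF (4.64%), was also the highest for Cish, Socs2 and Stat5a. By the seminal vesicle score, the mean log2(normalised count + 1) of the 8 genes, 11AF (12.5) was above 10AF (10.9) instead. With this score as covariate the KO difference was 0.89 for Cish, 0.70 for Socs2 and 0.25 for Stat5a. With the skeletal muscle score it was 0.98, 0.49 and 0.52. The seminal vesicle score was 13.3 to 13.8 in KO against 2.29 to 12.5 in WT. The skeletal muscle score was 3.30 to 11.5 in KO against 12.4 to 14.6 in WT. With no shared range, these fits cannot tell genotype and tissue apart. Limma called 0 genes with either score in the model. The lowest limma adjusted p over all genes was 0.258 with the seminal vesicle score and 0.9997 with the skeletal muscle score. Without 10AF the limma adjusted p was 0.021 for Cish, 0.023 for Socs2 and 0.036 for Stat5a, in a fit that called 2886 genes. In all, 2 of the 6 members were above and 1 was below without overlap in KO at 10 weeks, where 11.7% of all genes tested were above and 14.3% below, and limma's test called 0 of 6 (0% of all genes, with 2930 genes or 19.4% at an unadjusted p under 0.05). These places hold for normalised counts. As RPM, Stat5b overlapped with WT, while Jak2 and Stat5a lay above WT without overlap.

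In A537T at 10 weeks the inhibitors overlapped with WT. Cish had 109, 79.5 and 68.2 normalised counts in WT and 289, 124 and 79.7 in A537T, and Socs2 had 128, 83.0 and 75.6 against 148, 147 and 95.8. Library 16AF was the highest for Cish in any group, although its seminal vesicle share was 0.191%. The Cish difference of 0.75 (SE 0.46, limma adjusted p = 0.761) was 0.24 without 16AF, and that of Socs2 was 0.45 (SE 0.27, limma adjusted p = 0.762). None of the 6 members was above WT without overlap in this comparison and 2 were below, against 5.58 and 6.34% of all genes, and limma called 0 of 6 (0% of all genes, with 973 or 6.43% at an unadjusted p under 0.05, and 0.595% called by DESeq2).

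At 30 weeks the inhibitors were higher in the 4 mutant libraries with seminal vesicle RNA and near WT in the other 2. Socs2 had 49.9, 79.5 and 62.4 normalised counts in WT against 128, 62.4 and 116 in KO, and 47.3, 75.7 and 59.4 in WT against 110, 68.4 and 118 in A537T. Libraries 5AF and 8AF lay within the WT range in both tables. Cish had 96.5, 77.2 and 71.3 in WT against 108, 72.7 and 145 in KO, and 97.0, 78.0 and 72.2 in WT against 149, 97.4 and 128 in A537T. Library 5AF lay among the WT, and 8AF exceeded the highest WT library by less than 1 count.

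As a share of the WT mean, Socs2 was at 200.2, 182, 182 and 195% in 4AF, 6AF, 7AF and 9AF, and at 97.7 and 113% in 5AF and 8AF. Prlr in these same libraries was below 68% in each. The Socs2 differences were 0.63 (SE 0.32, limma adjusted p = 0.509) in KO and 0.68 (SE 0.27, limma adjusted p = 0.352) in A537T, and without the libraries rich in seminal vesicle RNA they were -0.01 and 0.19. For Cish they were 0.37 (SE 0.27, limma adjusted p = 0.636) and 0.58 (SE 0.21, limma adjusted p = 0.318), and without those libraries -0.15 and 0.25. The part of seminal vesicle tissue in these values was not tested further.

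At 30 weeks 1 member was above WT (Jak2) and 1 below (Prlr) without overlap in KO, where 7.92% of all genes were above and 8.41% below. In A537T these were Cish above and Prlr below, where 9.18 and 9.40% of all genes were so placed. The median log2 difference of the 6 members in KO was 0.64 at 10 weeks and 0.29 at 30 weeks, that in A537T was 0.32 and 0.38, and the median over all genes tested lay between -0.01 and 0.01.

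**Figure D4:**
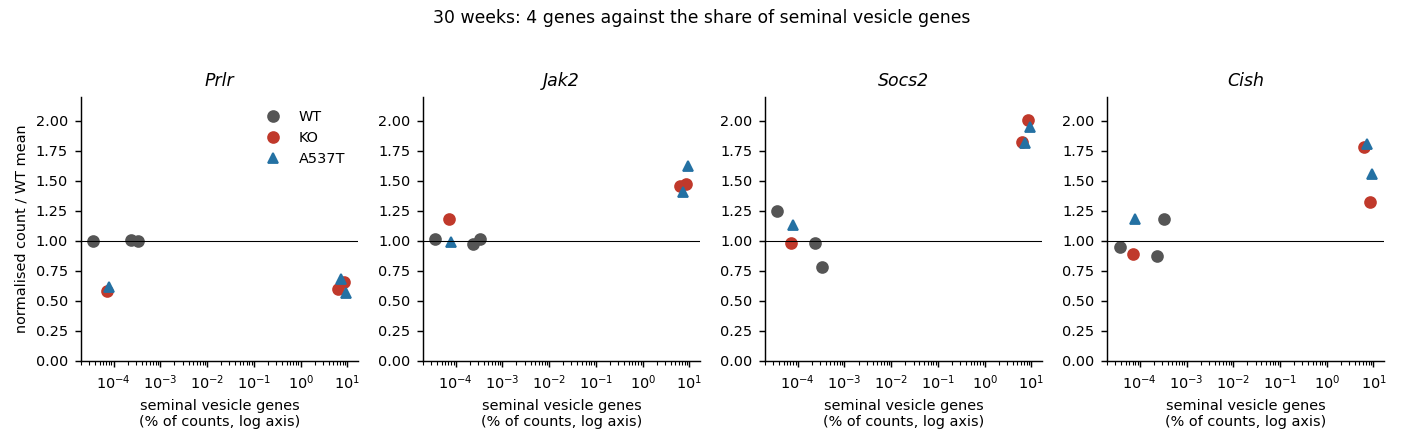
Normalised count relative to the WT mean of the same table (vertical axis) against the share of 8 seminal vesicle genes in all counts (horizontal axis, log scale) at 30 weeks, 1 point per library; WT points come from the table of the KO, and the line marks the WT mean. Prlr is at 56.6 to 67.7% of WT in all 6 mutant libraries, while Socs2 is at 182 to 200.2% in the 4 libraries on the right and at 97.7 and 113% in the 2 on the left.

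Levels can be compared between genes per length. Per kilobase of annotated exon, the mean normalised count in WT at 30 weeks in the table of the KO was 386 for Prlr, 119 for Stat5a, 66.6 for Jak2, 56.7 for Stat5b, 12.7 for Cish and 6.70 for Socs2. By group mean on this scale the receptor was the most abundant member in every group, and the inhibitors were the least abundant. Prlr was far above Stat5a in each library of that group, Stat5a overlapped with Jak2 and Stat5b, Jak2 and Stat5b overlapped, and Cish and Socs2 stood apart from the rest and from each other. The lengths cover all annotated exons of a gene, and a gene whose prostate transcripts are shorter is understated.

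The genes whose pattern over the 18 libraries was most like that of a member were found by Pearson's r on log2 counts centred on the WT mean of the table, among 9998 genes. For Prlr these were Ubqln2 (r = 0.96), a shuttle factor of the proteasome, Tmed10 (r = 0.94), a cargo receptor of the early secretory pathway, and Lman2 (r = 0.93), a lectin of the same pathway. Within the 9 libraries of each age r was 0.94 and 0.98 for Ubqln2, 0.82 and 0.95 for Tmed10 and 0.85 and 0.88 for Lman2, at 10 and 30 weeks. For Socs2 they were Zfp809 (r = 0.92), Elovl5 (r = 0.91) and Itpkb (r = 0.90), and for Cish they were Fem1c (r = 0.81), Rab40c (r = 0.81) and Cggbp1 (r = 0.80). At 10 and 30 weeks r was 0.89 and 0.96 for Zfp809, 0.84 and 0.98 for Elovl5 and 0.82 and 0.96 for Itpkb. It was 0.79 and 0.89 for Fem1c, 0.87 and 0.51 for Rab40c and 0.81 and 0.71 for Cggbp1.

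Among the members, Cish and Socs2 varied alike, with r = 0.74 over 18 libraries, 0.82 at 10 weeks and 0.75 at 30 weeks. This was not particular to the pair. At 30 weeks Socs2 had r = 0.93 with Stat5b and 0.88 with Jak2, and Cish had 0.71 and 0.77 with them. In the younger mice Socs2 had r = -0.38 with Stat5b and 0.21 with Jak2, and Stat5a had 0.78 with both Prlr and Socs2. Prlr and Socs2 had r = 0.77 at 10 weeks and -0.58 at 30 weeks. Prlr and Cish had r = 0.71 and -0.52 at these ages. These values describe libraries that share their genotype and their tissue composition, and they carry no test.

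The wider pathway was followed in 65 further genes in 5 lists of ligands, receptors, kinases and STATs, inhibitors, and STAT5 targets. Limma called 0 of the 44 or 45 genes tested in each comparison. At an unadjusted p under 0.05, 5 were higher and 2 lower in KO at each age, 1 was higher and 0 lower in A537T at 10 weeks, and 5 were higher and 1 lower in A537T at 30 weeks. Of all genes tested, 19.4% (KO) and 6.43% (A537T) were under that p in the younger mice, and 11% and 13.6% in the older. Without overlap, 9 were above and 3 below WT in KO at 10 weeks and 3 above and 1 below in A537T, and at 30 weeks 3 were above and 2 below in KO and 7 above and 4 below in A537T. Over all genes the shares above and below at 10 weeks were 11.7 and 14.3% for KO and 5.58 and 6.34% for A537T. At 30 weeks they were 7.92 and 8.41% for KO and 9.18 and 9.40% for A537T. The ligand Prl itself was listed at 0 reads in all libraries, which allows up to 3 reads in each, and Gh had 1 read in 1 library. Of the 11 ligands only 2 passed the filter on low values in each comparison.

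Among the other receptors, Ghr, the growth hormone receptor, had 439, 514 and 726 normalised counts in WT and 348, 282 and 160 in KO at 10 weeks. Every KO library was below the WT, with a difference of -1.12 (SE 0.32, limma adjusted p = 0.183). The highest was 12AF, the library richest in skeletal muscle genes, and the part of tissue composition in Ghr was not tested. Csf2ra, a chain of the GM-CSF receptor, was above WT without overlap at 10 weeks in both lines, by 0.79 (SE 0.19) in KO and 0.67 (SE 0.23) in A537T, with limma adjusted p of 0.183 and 0.746. Ghr differed by 0.04 (SE 0.21) in A537T at 10 weeks and by -0.31 and -0.22 at 30 weeks, with overlap in all 3.

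Of the other kinases and STATs, Jak1, which pairs with many cytokine receptors, differed by 0.03 to 0.07 in the 4 comparisons, and its groups overlapped in each. Stat3 differed by 0.17 and -0.09 at 10 weeks and by -0.13 and -0.21 at 30 weeks. Stat2, a transcription factor of the interferon response, was below WT without overlap in KO at 30 weeks by -0.47 (SE 0.14, limma adjusted p = 0.396) and above it in A537T at 10 weeks by 0.25 (SE 0.15, limma adjusted p = 0.754).

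Of the 17 inhibitors and regulators, 15 to 17 were tested and the list's median difference was between -0.07 and 0.07. Socs3, the inhibitor best known from STAT3 signalling, had between 5.61 and 45.4 normalised counts in all libraries and differed by -0.31 and 0.67 at 10 weeks and by 0.58 and 1.07 at 30 weeks, with limma adjusted p from 0.426 to 0.749. Socs7 was below WT without overlap in A537T at 10 weeks by -0.26 (SE 0.15, limma adjusted p = 0.749).

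Among the STAT5 targets, Ccnd1 and Elf5 were high in the libraries that held seminal vesicle RNA, and Bcl6 was low in all mutant libraries at 30 weeks. Ccnd1, the cell cycle gene cyclin D1, had 348, 373 and 352 normalised counts in WT and 3435, 359 and 2696 in KO at 30 weeks, and 345, 369 and 350 against 3783, 387 and 5237 in A537T. The libraries 5AF and 8AF stood at 100.3 and 109% of the WT mean and the other 4 at 753% or more. At 10 weeks Ccnd1 had 2283, 1256 and 420 in WT and 3765, 2841 and 4126 in KO, a difference of 1.73 (SE 0.57, limma adjusted p = 0.195). Elf5, an epithelial transcription factor, and Lcn2, a secreted iron carrier, were above WT without overlap in KO at 10 weeks by 3.49 (SE 1.61) and 1.91 (SE 0.92), with limma adjusted p of 0.282 and 0.295. Elf5 had 1202, 4.82 and 1653 normalised counts in A537T libraries 7AF to 9AF, and 810, 338 and 6.12 in WT libraries 10AF to 12AF.

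Bcl6, a transcriptional repressor whose gene is known to be held down by STAT5, had 461, 350 and 393 normalised counts in WT and 234, 208 and 224 in KO at 30 weeks, and 460, 350 and 394 in WT against 144, 235 and 124 in A537T. All mutant libraries were below all WT libraries, 5AF and 8AF included. The differences were -0.84 (SE 0.13, limma adjusted p = 0.238) and -1.30 (SE 0.25, limma adjusted p = 0.185). In KO at 10 weeks Bcl6 was also below WT without overlap, by -0.81 (SE 0.23, limma adjusted p = 0.183). Over 12 tested genes, the list's median difference in KO was 0.56 at 10 weeks and 0.31 at 30 weeks, and in A537T it was 0.08 and 0.50.

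**Figure D5:**
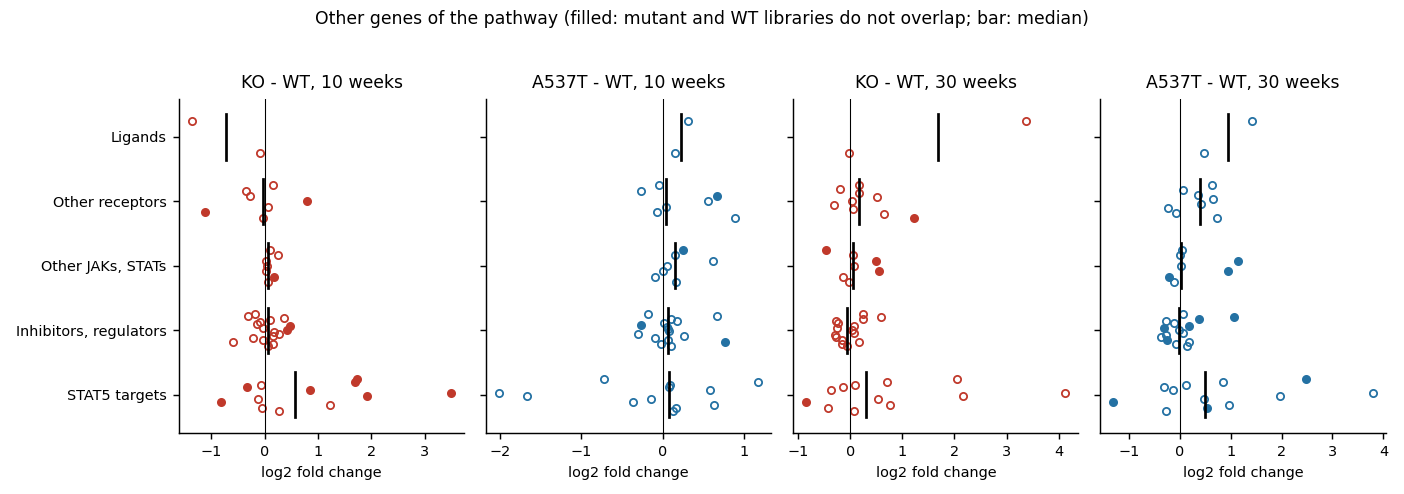
Difference between mutant and WT means on log2(normalised count + 1) (horizontal axis) for the tested genes of 5 pathway lists in the 4 comparisons; filled points are genes whose mutant and WT libraries do not overlap and bars are list medians. The medians of kinases and STATs and of inhibitors lie within 0.16 of 0, and the STAT5 targets spread the most, up to 4.13 for Elf5 in KO at 30 weeks.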

How the data were processed

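Per the labels and the study's methods, the authors trimmed reads with Trim Galore 0.4.1 and cutadapt 1.18, aligned them with STAR 2.7.3a to GRCm38.p6 with GENCODE annotation, quantified them with strand-specific Salmon, and normalised the gene counts with DESeq2 1.26. The signal values deposited by the authors are these normalised counts, in 4 tables of 6 libraries, each normalised on its own; 4 further tables of the authors' fold changes and s-values were not used. Column names carry no genotype, and libraries were assigned to groups, not to replicates, by the given rule and the 3 columns that both tables of an age share. Whole reads were recovered for at least 99.99% of values (within 0.1 read). The reads of a WT library differed between its 2 tables for 20.3 to 24.3% of genes.

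Genes with a mean of at least 10 were tested within each table on log2(normalised count + 1) with limma 3.58.1 in R 4.3.3 (mean trend, two-sided), with Benjamini-Hochberg adjustment over all genes and a threshold of 0.05. Fold changes on this scale understate those of low genes, and p-values measure the spread between 3 mice per group. Recovered reads were tested with edgeR 4.0.16 and DESeq2 1.42.0 as alternatives. The limits for 0 reads cover counting error only. The fitting scripts were tested on simulated data. Python 3.11.15 with numpy 2.4.6, pandas 2.3.3 and matplotlib 3.10.9 was used for the permutations, correlations and plots.

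The members and gene lists were chosen with earlier results of these data known. Genes named were the members and Elac2; Prl, Ghr, Jak1, Stat3, Ccnd1 and Socs3; per comparison, the 3 pathway genes of largest difference with a mean of at least 50 and no overlap; the 3 genes most like Prlr, Socs2 and Cish; and the 2 most abundant genes of marker lists. Gh was named after its values were seen. One pathway gene that the rule named is not reported here. Cell types were followed with 10 marker lists. The alternatives were pseudocount 8, minimum means of 1 and 100 or none, scaling to the same total, quantile normalisation, no mean trend, tissue scores as covariates, and leaving out each library.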

Additional observations from a re-analysis of the deposited data

How the results depend on the processing

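No paired analysis was possible because the library columns carry no replicate number. Of 405 log2 differences of the members under the alternatives, 381 kept their direction and side of the threshold, 10 passed it and 14 changed sign; Prlr at 30 weeks never changed sign. DESeq2 called 1 member in KO at 10 weeks (Cish), 0 in A537T at 10 weeks and 1 in each line at 30 weeks (Prlr), among 715, 90, 285 and 472 genes in all. When each library was left out in turn, between 0 and 3 members were called in KO at 10 weeks (3 without 10AF), 0 in A537T at 10 weeks, 0 to 2 in KO at 30 weeks (Prlr and Jak2 without 5AF, with 944 genes called) and 0 to 2 in A537T at 30 weeks (the same genes without 8AF, with 1224). Further leave-one-out counts of all genes were 2886 (KO) and 50 (A537T) without 10AF and 185 without 14AF, and the rest were at most 6, and other settings gave at most 3. For the difference between ages 0 to 4 of 12 passed when a library was left out (4 without 5AF). Scaling to the same total moved the median of all genes at 10 weeks to 0.20 in KO and 0.15 in A537T and changed the sign of no member.

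Sign changes with a skeletal muscle score were Prlr in KO (-0.051) and Stat5a in A537T (-0.34) at 10 weeks, and without 12AF, Prlr (-0.076; 0.39 without 18AF, the highest) and Stat5a (-0.043; 0.92 without 10AF, the highest) in A537T. With a seminal vesicle score they were Prlr in KO at 10 weeks (-0.044, chosen after seeing the data), and at 30 weeks Stat5b (-0.32) and Cish (-0.13) in KO and Stat5a in A537T (0.065). Without the libraries over 1% seminal vesicle counts, also chosen after seeing the data, they were Socs2 (-0.0082), Stat5b (-0.40) and Cish (-0.15) in KO and Jak2 in A537T (-0.015); 1 mutant library remained, assumed to vary like the WT. Leaving out a library gave Stat5a at 30 weeks -0.89 to 0.12 in KO (0.12 without 5AF) and -0.61 to 0.19 in A537T (0.19 without 2AF), and age differences of -0.48 to 0.059 for Socs2 in KO (0.059 without 5AF) and -0.58 to 0.34 for Cish in A537T (0.34 without 16AF). The causes were not tested.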

Other observations

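Markers of the other cell types followed are given as shares of normalised counts, without a test. In A537T at 30 weeks the shares of the 3 immune lists lay above WT without overlap. B and plasma cell genes, led by Jchain and Mzb1, took 0.00270 to 0.00778% against 0.000670 to 0.00121% in WT. Macrophage genes, led by Csf1r and C1qa, took 0.00753 to 0.0172% against 0.00536 to 0.00620%. T cell genes, led by Cd4 and Lck, took 0.000538 to 0.000856% against 0.000214 to 0.000525%. By score, the mean log2(normalised count + 1) of a list, the T cell genes overlapped (2.92 in 7AF against 2.93 in WT library 1AF). In KO at 30 weeks all 3 shares overlapped with WT, but the B and plasma cell score did not, at 3.39 to 3.95 against 2.06 to 3.37.

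In KO at 10 weeks the basal genes, led by Krt15 and Krt5, took 0.0123 to 0.0158% against 0.00630 to 0.0110% in WT. In A537T at 10 weeks the adipocyte genes, led by Cfd and Fabp4, took 0.0562 to 0.0626% against 0.0301 to 0.0490% in WT, although their scores overlapped. Smooth muscle genes, led by Myh11 and Acta2, and endothelial genes, led by Pecam1 and Kdr, overlapped with WT in all 4 comparisons. The part of these cell types in the values of the pathway was not tested.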
